A study of Mus musculus with 6 samples.

Results

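The 10 genes described here belong to the 2 routes by which cells show peptides to T cells. H2-K1, H2-D1, B2m, Tap1, Tapbp and Nlrc5 serve MHC class I, and H2-Aa, H2-Ab1, H2-Eb1 and Cd74 serve class II. They were taken by gene symbol from tables of 23282 rows, and all 10 had 1 row each. RNA had been counted in gastrocnemius, a calf muscle, of 3 male mice given inotodiol and 3 given vehicle. All 6 were wild-type C57/BL6J mice aged 20 months. The inotodiol group took the compound, a lanostane triterpenoid of the chaga mushroom, by mouth each day at 0.35 mg/kg for 10 weeks. The vehicle group took the carrier of polyethylene glycol, Tween 80 and saline, and no untreated or young mice were part of the comparison. The series title names liver X receptor beta and muscle wasting, so the comparison asks which transcripts of old muscle differ with treatment.

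Class I molecules sit on nearly all nucleated cells and carry peptides made in the cytosol, which the TAP transporter moves into the endoplasmic reticulum. Class II molecules are chiefly found on dendritic cells, B cells and activated macrophages, and carry peptides of material taken up from outside. Resting muscle fibres show little class I, and interferon-gamma is known to raise both routes. Mice of the C57BL/6 background carry a defective alpha chain gene of the I-E molecule, so that of the classical class II molecules they show I-A alone at the cell surface. The row of that gene, H2-Ea-ps, had 0 counts in all 6 libraries.

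The level of these genes differed between mice more than between treatments. Of the 10 genes, 9 had their highest level in inotodiol mouse 1, whereas inotodiol mice 2 and 3 lay at the low end of the range for most of them. Of the 9 genes that passed the filter on low counts, 0 were called by edgeR's quasi-likelihood test at an adjusted p under 0.05, against a background of 0% of 11700 genes. No member had an unadjusted p under 0.05 either, against 4.87% of all genes, and 0 were called by DESeq2 or limma-voom. The 2 groups overlapped for all 9, whereas 10.4% of all genes had groups that did not. The median log2 fold change, inotodiol over vehicle, was 0.26 over the 9 members and -0.00073 over all genes tested; with limma-voom that of the members was -0.23. Without inotodiol mouse 1, left out after its values had been seen, all 9 members lay below 0, with a median of -1.18. Without vehicle mouse 3 none of the 10 members then tested lay below 0, and their median was 0.55.

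The libraries held 8961893 to 9953764 counts, and the muscle fibre genes (8 of 8 detected, among them Acta1, Ckm and Myh4) summed to 124800 to 134600 CPM with inotodiol and 123500 to 125200 CPM with vehicle. CPM are counts scaled to library size after TMM normalization, and 1 count is worth 0.0982 to 0.111 CPM. Inotodiol mouse 1 stood apart in transcripts of the liver as well as in the genes described here, so that the log2 fold changes of the 9 members tested are given with and without it. A muscle sample holds many cell types, and in such bulk RNA fewer cells of a type cannot be told apart from less RNA per cell.

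**Figure D1:**
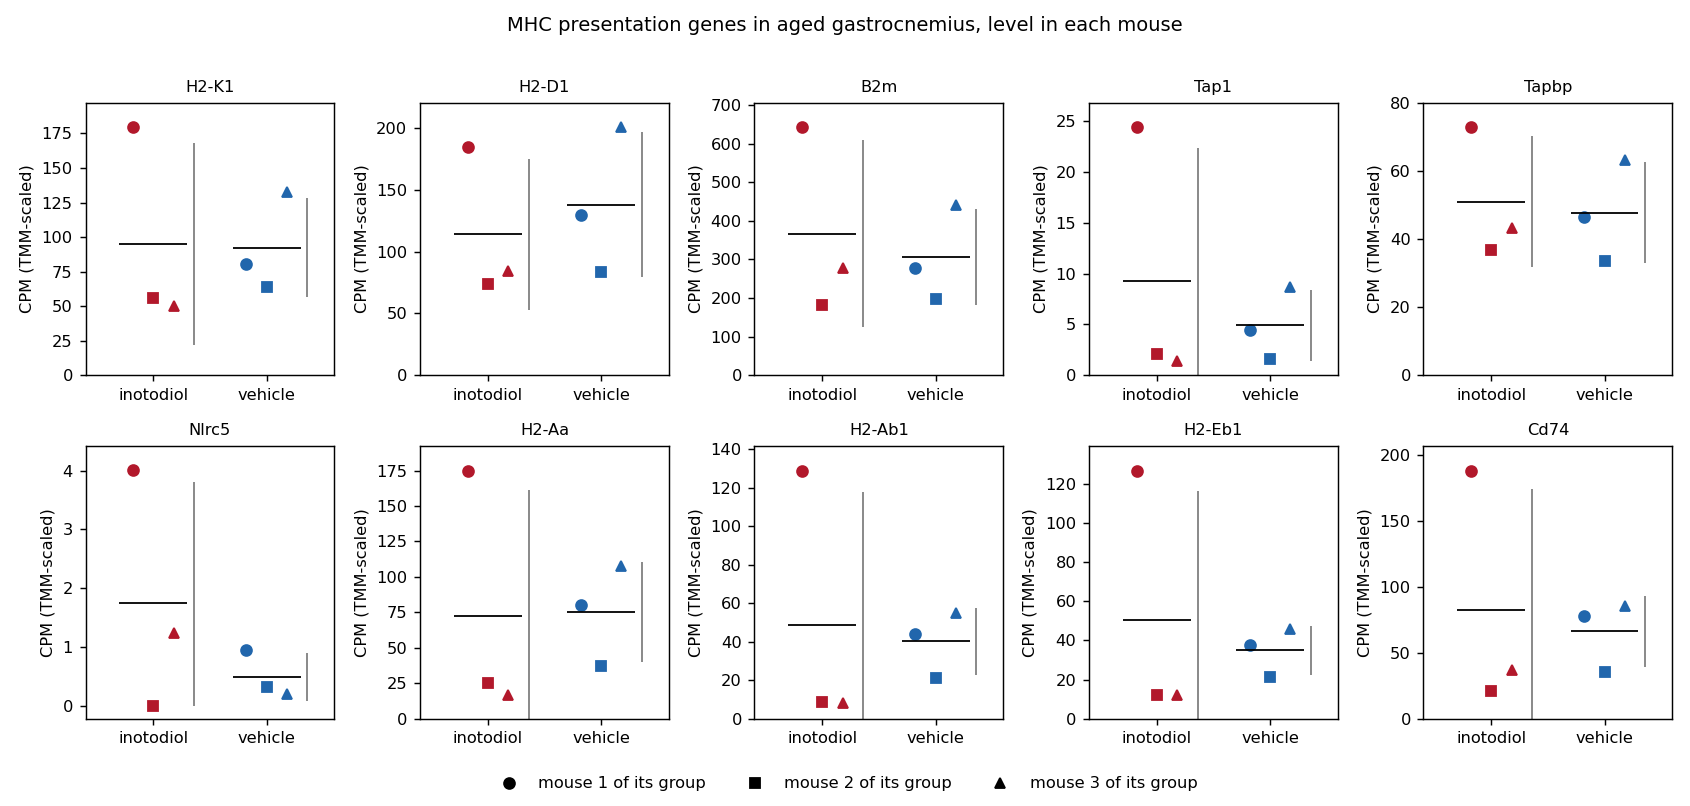
Level of each gene (CPM, TMM-scaled, linear axis) in the 3 inotodiol mice (left, red) and the 3 vehicle mice (right, blue), with the mean (black line) and 1 SD on either side (grey bar, cut off at 0). The circle of inotodiol mouse 1 is the highest point in every panel but that of H2-D1, where vehicle mouse 3 had 201 CPM against its 185 CPM.

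The start regions of several of these genes carry a module that is known from the study of MHC regulation. Its X box is bound by the RFX complex and by CREB-family factors, its Y box by NF-Y, and the coactivators CIITA (class II) and NLRC5 (class I) act through them. RefSeq promoter sequences (build GRCm38.p6) were at hand for 7 of the 10 members, and 5 are shown because they let the spacing of the module be compared between class I and class II genes. Each runs 5′ to 3′ on the gene's own strand from base -120 to base -10 before the RefSeq start of transcription. The GENCODE coordinates of H2-D1 begin earlier, at 35262730, so by that annotation its stretch lies inside the gene. Capitals mark the X1 core (GCAAC), the X2 core (TGACG) and the Y box core (CCAAT, or ATTGG when reversed), each searched on both strands; the palindrome in H2-Aa is 2 overlapping X2 cores, 1 on each strand.
H2-K1 (class I heavy chain, chr17:34000357-34000467, minus strand): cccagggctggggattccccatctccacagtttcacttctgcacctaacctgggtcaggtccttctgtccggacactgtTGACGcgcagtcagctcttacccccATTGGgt
H2-D1 (class I heavy chain, chr17:35262974-35263084, plus strand): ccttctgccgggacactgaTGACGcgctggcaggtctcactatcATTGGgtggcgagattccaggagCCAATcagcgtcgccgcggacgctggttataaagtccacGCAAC
B2m (class I light chain, chr2:122147567-122147677, plus strand): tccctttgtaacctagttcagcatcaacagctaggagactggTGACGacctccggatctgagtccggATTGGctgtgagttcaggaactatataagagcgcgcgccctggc
H2-Aa (class II alpha chain, chr17:34287833-34287943, minus strand): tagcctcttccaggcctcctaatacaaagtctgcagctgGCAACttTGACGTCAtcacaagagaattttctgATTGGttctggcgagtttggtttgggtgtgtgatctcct
H2-Eb1 (class II beta chain, chr17:34305747-34305857, plus strand): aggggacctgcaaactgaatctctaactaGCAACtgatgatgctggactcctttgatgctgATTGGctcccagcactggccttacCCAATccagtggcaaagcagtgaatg

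In H2-K1, H2-D1 and B2m the X2 core was followed by a gap of 20 bases and then by ATTGG. The gap was 21 bases in H2-Aa. Among 32851 RefSeq promoters 0.216% hold TGACG and ATTGG at a gap of 19 to 22 bases within the 250 bases before the start. H2-Aa and H2-Eb1 also hold GCAAC ahead of ATTGG, at gaps of 28 and 27 bases, an arrangement found at 26 to 29 bases in 0.177% of promoters. The gap ranges were set after these promoters had been read. The letters alone are common, with CCAAT in 33.8%, GCAAC in 29.9% and TGACG in 17.8% of promoters. The GCAAC marked in H2-D1 lies after ATTGG and is part of no such pair. The promoters of Tap1 and Tapbp hold no such spaced pair. These are matches of letters, and binding was not measured.

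The class II genes spanned 8.82-fold (Cd74) to 16.1-fold (H2-Ab1) between their lowest and highest libraries. H2-Aa, which encodes the alpha chain of I-A (chromosome 17, 34282744 to 34287823, GRCm38), had 175, 25.0 and 16.8 CPM in inotodiol mice 1 to 3, against 80.5, 37.5 and 108 CPM in vehicle mice 1 to 3. Inotodiol mouse 1 lay above every vehicle mouse, and inotodiol mice 2 and 3 lay below every vehicle mouse. H2-Ab1, the beta chain partner of H2-Aa (chromosome 17, 34257689 to 34269419), showed the same order with a wider range. It had 129, 8.43 and 7.99 CPM in inotodiol mice 1 to 3, against 44.0, 21.3 and 55.1 CPM in vehicle mice 1 to 3. Inotodiol mouse 1 thus had 15.3 times the level of mouse 2 and 16.1 times that of mouse 3 of its own group. H2-Eb1, the beta chain of I-E (chromosome 17, 34305867 to 34316674), had 127, 12.3 and 12.1 CPM with inotodiol and 37.7, 21.4 and 45.7 CPM with vehicle. Its inotodiol mice likewise lay outside the vehicle range, mouse 1 above it and mice 2 and 3 below it. Cd74 encodes the invariant chain, which guards the class II groove until the peptide is loaded. It had 188, 21.3 and 36.9 CPM in inotodiol mice 1 to 3, against 77.8, 35.6 and 85.0 CPM in vehicle mice 1 to 3. Here inotodiol mouse 3 lay just above vehicle mouse 2, and the other inotodiol mice lay outside the vehicle range.

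Group means of the class II genes were close beside this spread. H2-Ab1 averaged 48.4 ± 69.6 CPM with inotodiol and 40.1 ± 17.2 CPM with vehicle (SD, n = 3 each), a log2 fold change of 0.27 ± 0.76 (SE) with a 95% interval of -1.36 to 1.90. H2-Aa averaged 72.2 ± 89.0 CPM with inotodiol and 75.3 ± 35.5 CPM with vehicle, a log2 fold change of -0.062 ± 0.63. For H2-Eb1 the log2 fold change was 0.53 ± 0.66 and for Cd74 it was 0.31 ± 0.57. Adjusted p-values of these 4 genes in edgeR's quasi-likelihood test were 0.989 to 0.998. The upper ends of the 95% intervals were 1.30 for H2-Aa, 1.95 for H2-Eb1 and 1.54 for Cd74, so the data set no narrow bound on a difference.

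Leaving out inotodiol mouse 1 turned the direction of 3 of the 4 class II genes and moved H2-Aa further below 0. H2-Ab1 then had a log2 fold change of -2.29 ± 0.34 (SE), H2-Aa of -1.85 ± 0.34, H2-Eb1 of -1.52 ± 0.29 and Cd74 of -1.18 ± 0.32. Unadjusted p-values were 2.09e-05, 0.000172, 0.000239 and 0.00347 in edgeR's quasi-likelihood test, and adjusted p-values 0.252, 0.96, 0.96 and 0.991, so none passed. With 2 inotodiol libraries left, 6 of the 9 members tested had an unadjusted p under 0.05 on the lower side, against 2.75% of 12056 genes, and 0 genes of all were called. Which mouse to leave out was chosen after its values had been seen, so these p-values are given as a description and do not test the shift.

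**Figure D2:**
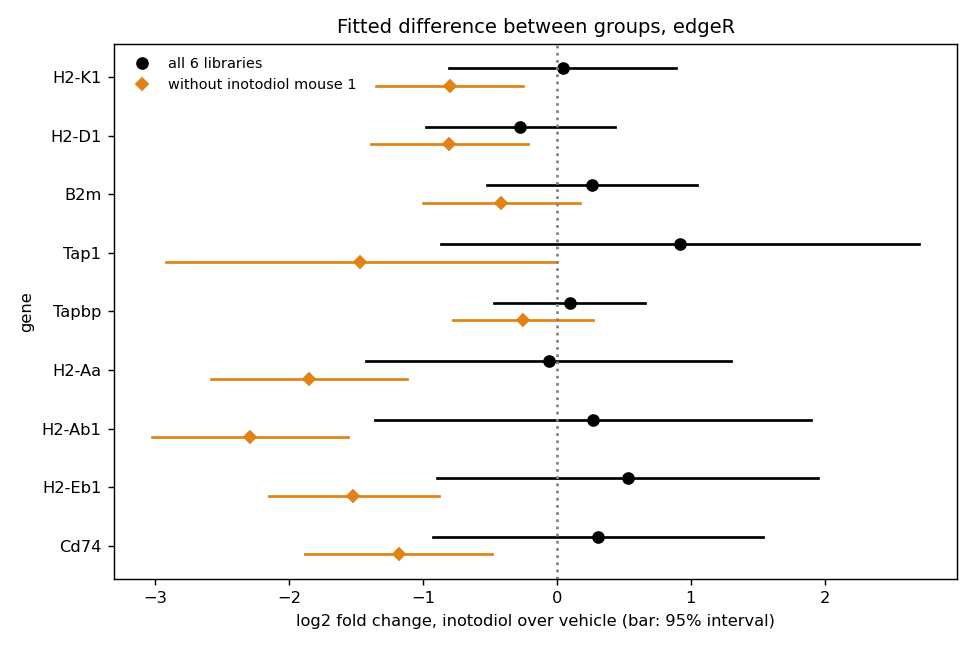
Log2 fold change, inotodiol over vehicle, of the 9 members tested, with 95% intervals from edgeR, for all 6 libraries (black circles) and without inotodiol mouse 1 (orange diamonds). With all libraries every interval spans 0; without that mouse all 9 points lie below 0, H2-Ab1 farthest at -2.29.

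The class II genes can also be read against one another within a library, where scaling plays no part. For each H2-Ab1 count there were 1.36, 2.96 and 2.10 H2-Aa counts in inotodiol mice 1 to 3, against 1.83, 1.76 and 1.96 in vehicle mice 1 to 3. Inotodiol mice 2 and 3 lay above all vehicle mice in this ratio, and inotodiol mouse 1 lay below them. Cd74 counts per H2-Ab1 count were 1.46, 2.53 and 4.62 with inotodiol and 1.77, 1.68 and 1.54 with vehicle. The highest ratio, in inotodiol mouse 3, rests on 360 counts of Cd74 and 78 of H2-Ab1. H2-Eb1 counts per H2-Ab1 count were 0.986, 1.46 and 1.51 with inotodiol and 0.856, 1.01 and 0.829 with vehicle. For Cd74 and H2-Eb1, as for H2-Aa, inotodiol mice 2 and 3 thus lay above all vehicle mice. These ratios are all taken over H2-Ab1, which had 76 and 78 counts in those mice, so they are not independent of one another.

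The class I chains followed the same mice over a smaller range. H2-K1, a classical class I heavy chain (chromosome 17, 33996017 to 34000347), had 179, 55.9 and 50.1 CPM in inotodiol mice 1 to 3, against 80.7, 64.0 and 132 CPM in vehicle mice 1 to 3. As for the I-A and I-E chains, inotodiol mouse 1 lay above and mice 2 and 3 below all vehicle mice. H2-D1, the other classical heavy chain of this strain (chromosome 17, 35262730 to 35267499), had 185, 73.9 and 84.1 CPM with inotodiol and 130, 83.8 and 201 CPM with vehicle. Vehicle mouse 3 was its highest library, the exception among the members. B2m encodes beta-2-microglobulin, the light chain that every class I molecule needs (chromosome 2, 122147686 to 122153083). It had 642, 182 and 277 CPM in inotodiol mice 1 to 3, against 278, 198 and 441 CPM in vehicle mice 1 to 3. Inotodiol mouse 3 lay within the vehicle range for B2m, just below vehicle mouse 1.

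None of the 3 chains differed between groups beyond this spread. B2m averaged 367 ± 243 CPM with inotodiol and 306 ± 124 CPM with vehicle (SD, n = 3 each), a log2 fold change of 0.26 ± 0.36 (SE, 95% interval -0.52 to 1.05). For H2-K1 it was 0.042 ± 0.40, with an interval from -0.81 to 0.89, and for H2-D1 it was -0.27 ± 0.33, with an interval from -0.98 to 0.43. Adjusted p-values in edgeR's test were 0.987 to 0.998. Without inotodiol mouse 1 these values were -0.41 for B2m, -0.80 for H2-K1 and -0.80 for H2-D1. Of all 50-base stretches of the annotated H2-K1 transcript, 8.79% also occur in transcripts of other genes, most of them in H2-D1, and 14.3% of those of H2-D1 do. These shares cover the whole annotated transcript, and the share of the counted reads that match several genes was not measured. The treatment of reads with several matches is not given in the sources used here, so the division of counts among the class I heavy chains is uncertain. No 50-base stretch of B2m, Nlrc5 or the 4 class II genes is shared in this way.

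Tap1 and Tapbp act on peptide supply and loading of class I. Tap1, a subunit of the peptide transporter (chromosome 17, 34187553 to 34197225), had 24.4, 2.11 and 1.44 CPM in inotodiol mice 1 to 3, against 4.42, 1.62 and 8.64 CPM in vehicle mice 1 to 3. Inotodiol mouse 1 was again highest and inotodiol mouse 3 lowest, on 225 and 14 counts. Tapbp encodes tapasin, which holds empty class I molecules at the transporter (chromosome 17, 33915899 to 33929292). It had 72.8, 36.8 and 43.4 CPM with inotodiol and 46.3, 33.7 and 63.1 CPM with vehicle, the narrowest range of the 10 genes at 2.16-fold, against 17.0-fold for Tap1. Log2 fold changes were 0.92 ± 0.83 (SE) for Tap1 and 0.095 ± 0.26 for Tapbp, with adjusted p-values of 0.965 and 0.996 in edgeR's test. Without inotodiol mouse 1 they were -1.47 ± 0.68 and -0.25 ± 0.24. Tap1 shares 212 exonic bases with Psmb9 on the opposite strand, and the strand setting of the counting is not given. Psmb9 itself, an immunoproteasome subunit, had 5.32, 2.00 and 1.02 CPM with inotodiol and 4.32, 1.30 and 3.54 CPM with vehicle, so its highest library was likewise inotodiol mouse 1. Tapbp shares 904 exonic bases with an antisense gene, Gm19412, and 149 with Zbtb22, a protein-coding gene on the same strand.

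Nlrc5, the coactivator of class I genes (chromosome 8, 94434356 to 94527272), was too low for the test. It had 37, 0 and 12 counts in inotodiol mice 1 to 3, against 9, 3 and 2 counts in vehicle mice 1 to 3. The 0 in inotodiol mouse 2 allows a level of up to 0.333 CPM (3 counts, counting error only), above the 0.324 and 0.196 CPM of vehicle mice 2 and 3. Inotodiol mouse 1, at 4.01 CPM, was the highest library, as for 8 of the other members. With no filter on low counts its log2 fold change was 1.82 ± 1.12 (SE), with an adjusted p of 1 in edgeR's test. Ciita, the class II coactivator, had 0 to 0.777 CPM with inotodiol and 0 to 0.211 CPM with vehicle and was not tested.

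The members can be set beside all genes for how much they vary within a group. The SD of log2 CPM among the inotodiol mice was 0.511 for Tapbp, 0.714 for H2-D1, 0.926 for B2m, 1.02 for H2-K1 and 1.63 to 2.27 for Tap1, Nlrc5 and the class II genes, where the median of all genes tested was 0.294. H2-Ab1, at 2.27, stood above 99.9% of genes tested. Among the vehicle mice the SDs were smaller, 0.451 to 1.14, beside a median of 0.281 for all genes. Inotodiol mouse 1 was the highest of the 6 libraries for 8 of the 9 members tested and for 16.2% of all genes tested. It held at least 3 times the level of both other inotodiol mice in 6 of the 9, against 1.69% of all genes. In 4 of the 9 (H2-K1, H2-Aa, H2-Ab1 and H2-Eb1) it was highest while inotodiol mice 2 and 3 lay below all vehicle mice, an order found in 1.63% of all genes. These orders were defined after the values had been seen and are given as a description.

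**Figure D3:**
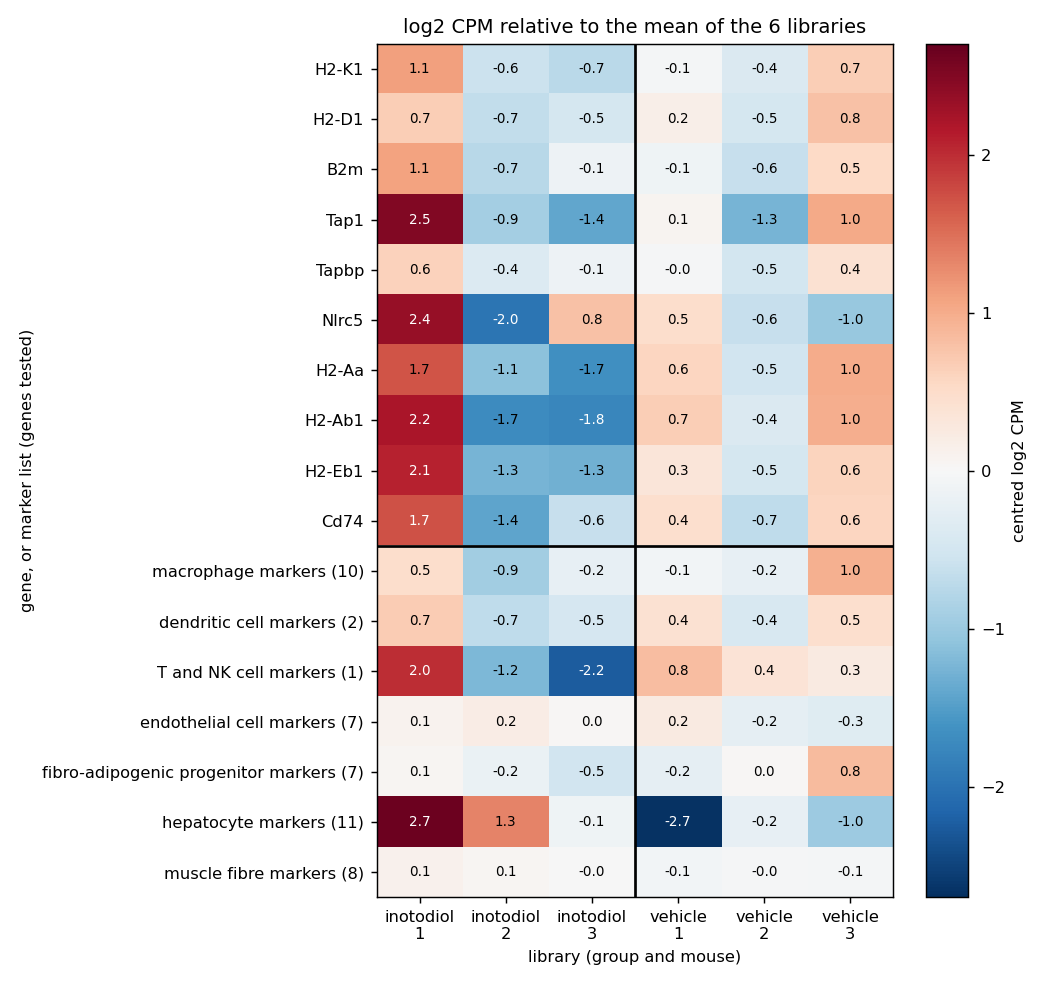
Level of each of the 10 genes (upper rows) and mean level of the tested genes of each marker list (lower rows, number of genes in brackets) in each library, as log2 CPM minus the mean of the 6 libraries; red is above and blue below that mean. Inotodiol mouse 1 is red for all 10 genes, from 0.6 for Tapbp to 2.5 for Tap1, while endothelial and muscle fibre markers stay within 0.3 of their mean in all but 1 library.

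Markers of other cells were read from the same libraries. The 12 macrophage genes, 10 to 12 of them detected per library, summed to 199, 70.0 and 113 CPM in inotodiol mice 1 to 3, against 135, 111 and 274 CPM in vehicle mice 1 to 3. Inotodiol mouse 1 was the highest of its group and mouse 2 the lowest of all 6, but vehicle mouse 3 exceeded inotodiol mouse 1, unlike in 9 of the 10 members. Of the 10 macrophage genes tested 3 were highest in inotodiol mouse 1 and 7 in vehicle mouse 3. The 9 dendritic cell genes summed to 8.79, 1.89 and 2.15 CPM with inotodiol and 4.32, 6.48 and 3.93 CPM with vehicle, so inotodiol mouse 1 was the highest and mice 2 and 3 the lowest libraries. Of these genes 9, 6 and 5 were detected in inotodiol mice 1 to 3 and 6, 7 and 7 in vehicle mice 1 to 3. Gene by gene, 5 of the 9 were highest in inotodiol mouse 1, 1 in inotodiol mouse 2, 1 in vehicle mouse 1 and 2 in vehicle mouse 2. Counts were low, and 2 of the 9 passed the filter.

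T and NK cell genes, 11 in all, summed to 10.6, 0.777 and 0.41 CPM in inotodiol mice 1 to 3, against 6.53, 1.19 and 4.42 CPM in vehicle mice 1 to 3. Again the sum was highest in inotodiol mouse 1 and lowest in mice 2 and 3, and Ncr1 had 0 counts throughout. Of the 10 T and NK cell genes with counts 6 were highest in inotodiol mouse 1, 3 in vehicle mouse 1 and 1 in vehicle mouse 3. Only 1 of the 11 passed the filter. Markers of B cells were near 0 in all libraries, with sums of 0.326, 0.222 and 0 CPM with inotodiol and 2.42, 0.108 and 1.38 CPM with vehicle. Cd79a, Ms4a1 and Pax5 had 0 counts in all 3 inotodiol libraries, including mouse 1, and Ighm had no row in the tables analysed here. Endothelial genes (7 of 7 detected) summed to 94.4 to 104 CPM with inotodiol and 76.2 to 108 CPM with vehicle. Fibro-adipogenic progenitor genes (7 of 7 detected) summed to 907 to 1096 CPM with inotodiol and 967 to 1712 CPM with vehicle, the highest being vehicle mouse 3. Hepatocyte genes (12 of 12 detected) summed to 588, 237 and 84.6 CPM with inotodiol and 13.2, 74.2 and 45.7 CPM with vehicle. They were highest in inotodiol mouse 1 as well, but inotodiol mouse 2, low for the members, was their second highest library. The part of macrophage, dendritic, T and NK, and hepatocyte transcripts in the levels of the presentation genes was not tested.

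**Figure D4:**
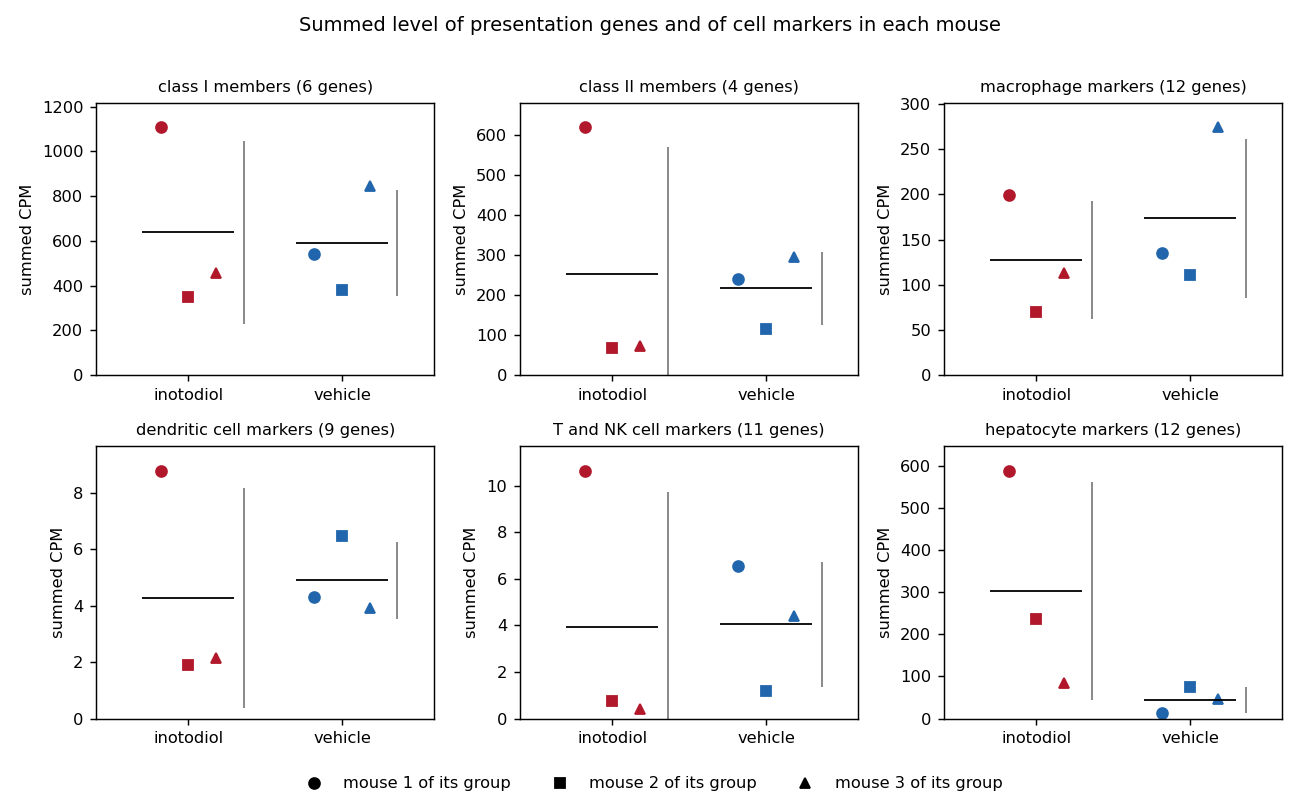
Summed CPM (TMM-scaled, linear axis from 0) of the class I and class II members and of 4 marker lists in the 3 inotodiol mice (left, red) and the 3 vehicle mice (right, blue), with mean (line) and SD (grey bar, cut off at 0). Class II members summed to 618, 67.0 and 73.8 CPM in inotodiol mice 1 to 3. The sums of dendritic cell and of T and NK cell markers, which rest on low counts, have the same high mouse and low pair within that group. Single genes of these lists differ in their highest library.

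Other genes of the pathway were read from lists chosen with the members. Of 18 other class I and class I-like heavy chains 8 were tested, 3 above and 5 below 0, and 0 were called. H2-Q1, H2-Q2, H2-Q6, H2-Q7, H2-T3 and H2-M5 had 0 counts in all libraries. Stretches of H2-D1 also occur in H2-Q1, H2-Q6 and H2-Q7, so the limit on reads with several matches holds for these 0 counts too. H2-Q10, a secreted class I chain made by the liver, had 8.14, 2.44 and 1.44 CPM with inotodiol and 0.843, 1.08 and 0.884 CPM with vehicle, a log2 fold change of 2.08 ± 0.71 (SE, adjusted p 0.933 in edgeR's test). The groups did not overlap for it. Its order among the inotodiol mice was that of the hepatocyte sums given above, and also that of H2-K1, Tap1, H2-Aa, H2-Ab1 and H2-Eb1. Hfe, the iron-regulating class I-like chain, had a log2 fold change of 0.36 ± 0.25, and H2-T24 of -0.49 ± 0.35.

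Of 14 genes of class I peptide supply and loading all were tested, 8 above and 6 below 0, with a median of 0.040 and 0 called. Psmb10, an immunoproteasome subunit, had 30.4, 9.88 and 17.3 CPM with inotodiol and 13.1, 7.02 and 10.5 CPM with vehicle, a log2 fold change of 0.91 ± 0.36. Tap2, the partner of Tap1 in the transporter, did not follow it. It had 2.60, 2.00 and 2.15 CPM in inotodiol mice 1 to 3, against 3.48, 3.67 and 7.56 CPM in vehicle mice 1 to 3, a log2 fold change of -1.12 ± 0.49, and its groups did not overlap. Psme1, a subunit of the proteasome activator PA28, had a log2 fold change of 0.50 ± 0.23, highest in inotodiol mouse 1 at 47.9 CPM. Adjusted p-values of Psmb10, Tap2 and Psme1 were 0.962 in edgeR's test. Calr, a chaperone of the loading complex, had 247, 198 and 212 CPM with inotodiol and 204, 197 and 222 CPM with vehicle.

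Of 15 genes of class II processing and loading 9 were tested, 3 above and 6 below 0, with a median of -0.082 and 0 called. H2-DMb1, a chain of the DM molecule that exchanges the invariant chain peptide, had 15.2, 2.44 and 1.95 CPM with inotodiol and 4.42, 0.756 and 6.58 CPM with vehicle. H2-DMa, its partner, had 14.7, 2.88 and 2.97 CPM with inotodiol and 5.58, 3.89 and 7.27 CPM with vehicle. Both were highest in inotodiol mouse 1, with log2 fold changes of 0.73 ± 0.76 and 0.29 ± 0.56 (SE). Ctsl, a lysosomal protease of many tissues, had 54.4, 67.7 and 63.6 CPM with inotodiol and 95.5, 72.4 and 76.4 CPM with vehicle, a log2 fold change of -0.40 ± 0.16. Its groups did not overlap, and inotodiol mouse 1 was its lowest library. Lgmn, a lysosomal endopeptidase, had a log2 fold change of -0.52 ± 0.44. Adjusted p-values of these 4 genes were 0.962 to 0.989 in edgeR's test.

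Of 11 transactivators and promoter factors 9 were tested, 7 above and 2 below 0, and 0 were called. Rfx5, a subunit of the RFX complex that binds the X box, had 4.56, 3.66 and 5.74 CPM with inotodiol and 13.3, 6.91 and 6.88 CPM with vehicle. Its log2 fold change was -0.95 ± 0.37 (SE, adjusted p 0.962 in edgeR's test), and inotodiol mouse 1 was not high for it. Irf2 had a log2 fold change of 0.22 ± 0.16. In the interferon-gamma list 11 of 13 genes were tested, 5 above and 6 below 0, with a median of -0.016 and 0 called. Ifng itself had 1 count in inotodiol mouse 1 and 0 in every other library. Socs3, a feedback inhibitor of cytokine signalling, had 5.21, 8.43 and 8.61 CPM with inotodiol and 10.4, 13.4 and 17.0 CPM with vehicle, a log2 fold change of -0.87 ± 0.30 (adjusted p 0.942 in edgeR's test). Cxcl10, a chemokine of interferon responses, stood at -0.84 ± 0.94. Neither was highest in inotodiol mouse 1, but 5 of the 11 genes tested in this list were, against 16.2% of all genes tested.

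Of 8 genes for costimulation and checkpoint ligands 3 were tested, all 3 above 0 and 0 called. Cd274, which encodes PD-L1, had 12.4, 2.22 and 1.23 CPM in inotodiol mice 1 to 3, against 2.21, 1.08 and 1.38 CPM in vehicle mice 1 to 3. Its log2 fold change was 1.75 ± 0.75 (SE, adjusted p 0.962 in edgeR's test), and no library other than inotodiol mouse 1 exceeded 2.22 CPM. Icam1, an adhesion molecule, had a log2 fold change of 1.09 ± 0.60 and Cd83 of 0.41 ± 0.99.

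Leaving out inotodiol mouse 1 moved these lists as well. The median log2 fold change was then -0.33 for the other class I and class I-like chains (3 of 9 genes above 0), -0.081 for peptide supply and loading of class I (5 of 14 genes above 0), -0.30 for class II processing and loading (0 of 9 above 0), 0.10 for the transactivators (6 of 10), -0.29 for the interferon-gamma list (2 of 11) and 0.37 for costimulation and checkpoint ligands (3 of 3). For the macrophage markers it was -0.99, with 1 of 11 genes above 0, and for the hepatocyte markers 1.72, with 11 of 11 above 0. The 2 dendritic cell genes tested had a median of -1.08, with 0 above 0, and the 1 T and NK cell gene tested stood at -3.34. Among the genes named from the lists, H2-DMb1 and H2-DMa changed sign, to log2 fold changes of -0.84 and -0.93, as did Calr (-0.018). H2-Q10 stood at 1.04, Psmb10 at 0.42, Psme1 at 0.19 and Cd274 at 0.15, each nearer 0 than with all libraries. Tap2 stood at -1.24, Rfx5 at -0.93, Socs3 at -0.67 and Ctsl at -0.31, on the same side of 0 as with all libraries. The class II members stood at -1.68 in the same fit, with 0 of 4 above 0, and the class I members at -0.80, with 0 of 5 above 0.

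Genes outside these lists whose levels ran closest to the members were found by the root mean square distance of centred log2 CPM over the 6 libraries, among the 8395 genes averaging 5 CPM or more. Nearest to the mean of the class II members were Csf2ra (0.235), Cd52 (0.327), H2-Q9 (0.417), Lcp1 (0.477) and Ptprc (0.53), where the median gene lay at 1.22. H2-Q9 is itself a class I heavy chain that had been left off the list of other class I chains. It had 12.0, 2.33 and 2.46 CPM with inotodiol and 6.85, 5.29 and 10.6 CPM with vehicle. Csf2ra, a subunit of the GM-CSF receptor, had 15.8, 2.22 and 2.26 CPM with inotodiol and 8.53, 3.13 and 11.0 CPM with vehicle. Ptprc, the gene of the leukocyte antigen CD45, had 17.1, 4.22 and 1.54 CPM with inotodiol and 5.16, 4.54 and 11.1 CPM with vehicle. Nearest to the mean of the class I members tested were Thy1 (0.227), Ezr (0.246), Rhog (0.25), Id2 (0.26) and C3 (0.263), beside a median of 0.758. C3, the central complement component, had 134, 41.5 and 67.1 CPM with inotodiol and 86.6, 51.4 and 109 CPM with vehicle. All 10 genes were picked for this likeness, and their log2 fold changes ran from -0.44 for H2-Q9 to 0.30 for Id2.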

How the data were processed

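RNA of gastrocnemius muscle was measured in 6 libraries, 3 inotodiol and 3 vehicle; the labels' protocols name a Lexogen Quant-Seq kit and total RNA. The deposited values are whole-number counts for each gene symbol, not normalized. Bowtie2, bedtools and build mm10 come from the submitters' processing notes. Versions, annotation, strand setting and handling of multiple matches are not stated there. Levels were not compared between genes, apart from the ratios of class II counts within a library, which were set beside those of other libraries. After filterByExpr (minimum count 10, minimum total 15) 11700 of 23282 rows were left. TMM scaling was followed by edgeR's quasi-likelihood test (edgeR 4.0.16 in R 4.3.3), two-sided and without covariates; p-values were adjusted after Benjamini and Hochberg over all 11700 genes, and the threshold was 0.05. P-values set the difference between groups against the spread among 3 mice a group, labelled as biological replicates. SEs come from the fitted weights and moderated dispersion. Log2 levels use a prior count of 2. Coordinates and transcripts are from GENCODE (GRCm38, the assembly of mm10). Members and lists were chosen with earlier results of these data known. Named were all members and, for each pathway list, every gene called or else the 3 with the smallest p; Psmb9, Ciita, Calr, H2-DMa, Ifng and the marker genes named as examples were added after their values had been seen, and 1 gene the rule names is not reported here. Alternatives were scaling by RLE, by upper quartile or by library totals, no filter, a filter of 1 CPM in all 6 libraries, DESeq2 1.42.0, limma-voom (limma 3.58.1), edgeR's robust option, a replicate block, a threshold of 0.10 and leaving out each library.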

Additional observations from a re-analysis of the deposited data

How the results depend on the processing

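The count of members called was 0 under all 16 alternatives. The count of all genes called was 82 with no filter on low counts, 1 with DESeq2, and 0 to 25 with single libraries left out, the 25 without inotodiol replicate 3. Log2 fold changes of members kept their sign in 110 of 135 recomputed values. With library totals alone the median of all genes moved to -0.12, and H2-K1 stood at -0.11, Tapbp at -0.038 and the class I median at -0.038, which is above that shift. With limma-voom H2-K1 was -0.16, H2-Ab1 -0.88, H2-Eb1 -0.34, Cd74 -0.23, the median of the members -0.23 and the class II median -0.54. With the replicate block these were -0.14, -0.81, -0.30, -0.22, -0.22 and -0.48 in the same order. The replicate numbers share only a number: the correlations of same-numbered deviations were -0.081, 0.11 and 0.022. The block moved no count of members called. The cause of these changes of sign was not tested. With single libraries left out, the log2 fold change ranged from -0.80 to 0.39 for H2-K1, -0.80 to 0.098 for H2-D1, -0.41 to 0.62 for B2m, -1.47 to 1.62 for Tap1, -0.25 to 0.35 for Tapbp, -1.85 to 0.41 for H2-Aa, -2.29 to 0.77 for H2-Ab1, -1.52 to 0.99 for H2-Eb1 and -1.18 to 0.76 for Cd74. The medians ranged from -1.18 to 0.68 for the members, -0.80 to 0.51 for class I and -1.68 to 0.76 for class II. The lowest value came without inotodiol replicate 1 in every case, and without vehicle replicate 3 no member lay below 0. Without vehicle replicate 2 the medians were -0.0013, -0.028 and -0.0013. Nlrc5 was tested in 5 of the alternatives, at 1.44 to 2.69. Depth limits Nlrc5, Ciita and the lymphoid markers, where 1 count is 0.0982 to 0.111 CPM.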
